A study of Mus musculus with 12 samples.

Results

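The genes examined here encode the parts that start the classical and lectin pathways of complement, the plasma protein system that tags cells and debris for removal. They are the 10 genes C1qa, C1qb, C1qc, C1ra, C1s1, C2, C4b, Masp1, Masp2 and Serping1, taken by name from the 56748 genes of a table of read counts. RNA was sequenced from whole lung in 12 libraries, 4 from each of 3 genotypes, all from tissue collected at 4.5 months and all labelled as lung metastasis. Every animal carried MMTV-PyMT, a transgene for the middle T oncogene of polyoma virus under a promoter of mouse mammary tumour virus, which leads to mammary tumours that spread to the lung. The series design gives an MMTV-driven Cre recombinase to all 3 genotypes. Wild type (WT) had no further allele, the C3 knockout (C3 KO) also had C3Tdt, and the S1pr1 knockout (S1pr1 KO) also had S1pr1fl/fl. For WT the strain label lists MMTV-PyMT alone. The MMTV promoter is active mainly in mammary epithelium, and which cells of these lungs carried a deletion was not tested. The title of the series names the question, which is what removing C3, or S1pr1, a receptor for the lipid sphingosine-1-phosphate, does to metastasis in this organ.

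In the classical pathway, C1q binds antibody, pentraxins or dying cells, the protease C1r then activates the protease C1s, and C1s cleaves C4 and C2. Fragments of C4 and C2 join as the enzyme that cleaves C3, the protein deleted in one of the knockouts. In the lectin pathway, mannose-binding lectin, ficolins and collectins bind sugars in place of C1q, and the proteases Masp1 and Masp2 act in place of C1r and C1s. C1 inhibitor, the product of Serping1, inactivates the proteases of both pathways. Macrophages are the main known source of C1q, while C1r, C1s, C4 and C1 inhibitor are also made by fibroblasts and other stromal and epithelial cells.

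The 3 chains of C1q are encoded side by side on chromosome 4, within 18675 bases of GRCm39, the genome build of the deposited table. C1qb (ENSMUSG00000036905) lies at 136607440 to 136613498, C1qc (ENSMUSG00000036896) at 136617115 to 136620376 and C1qa (ENSMUSG00000036887) at 136623228 to 136626114, all on the minus strand. C1ra (ENSMUSG00000055172, chromosome 6 from 124489364 to 124500402, plus strand) and C1s1 (ENSMUSG00000038521, 124507304 to 124519318, minus strand) are also neighbours. C4b (ENSMUSG00000073418, 34947354 to 34962856) and C2 (ENSMUSG00000024371, 35081580 to 35117241) share the complement segment of the major histocompatibility region on chromosome 17. Masp1 (ENSMUSG00000022887) lies on chromosome 16 from 23268167 to 23339565 and Masp2 (ENSMUSG00000028979) on chromosome 4 from 148687011 to 148699956. Serping1 (ENSMUSG00000023224) lies on chromosome 2 from 84595731 to 84605788. All 10 are listed as protein coding.

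Because the C1q chains varied together across the libraries, and so did C1ra and C1s1, the promoters held for these 2 neighbourhoods are shown. RefSeq promoters on build GRCm38.p6, from 250 bases before to 50 after the start of transcription, matched 5 of the 10 genes. Each is given 5′ to 3′ on the strand of its gene, and capitals mark GAGGAA, a core of the type bound by the macrophage factor PU.1, or its reverse complement TTCCTC.
C1qb: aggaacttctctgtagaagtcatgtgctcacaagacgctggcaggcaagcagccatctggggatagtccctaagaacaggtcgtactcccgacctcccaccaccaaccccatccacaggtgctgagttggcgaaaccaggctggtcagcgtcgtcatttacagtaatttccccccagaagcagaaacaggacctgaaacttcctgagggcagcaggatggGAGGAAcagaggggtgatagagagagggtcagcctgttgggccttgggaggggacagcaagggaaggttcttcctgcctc
C1qc: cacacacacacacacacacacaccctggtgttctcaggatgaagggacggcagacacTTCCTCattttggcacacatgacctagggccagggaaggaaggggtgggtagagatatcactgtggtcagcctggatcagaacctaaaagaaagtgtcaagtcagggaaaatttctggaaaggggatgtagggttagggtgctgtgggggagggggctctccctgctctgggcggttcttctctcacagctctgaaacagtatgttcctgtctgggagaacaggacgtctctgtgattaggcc
C1ra: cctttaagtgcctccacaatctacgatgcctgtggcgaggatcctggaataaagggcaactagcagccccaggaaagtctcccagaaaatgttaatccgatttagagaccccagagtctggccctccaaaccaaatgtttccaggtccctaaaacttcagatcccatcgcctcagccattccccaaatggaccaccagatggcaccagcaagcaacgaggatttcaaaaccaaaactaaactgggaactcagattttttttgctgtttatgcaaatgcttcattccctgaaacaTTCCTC
C1s1: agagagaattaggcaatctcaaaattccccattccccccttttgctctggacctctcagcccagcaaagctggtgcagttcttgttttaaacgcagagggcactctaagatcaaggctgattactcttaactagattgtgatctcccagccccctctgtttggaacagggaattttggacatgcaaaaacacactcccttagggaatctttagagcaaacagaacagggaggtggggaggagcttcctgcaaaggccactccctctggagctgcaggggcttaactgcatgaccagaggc
The core stands at -30 from the start in C1qb (chr4:136886151-136886450, minus strand), read on the gene's own strand. It stands at -193 in C1qc (chr4:136892865-136893164, minus strand) and at 44 in C1ra (chr6:124512371-124512670, plus strand), read on the other strand in both. The first of the 2 promoters of C1s1 (chr6:124542310-124542609, minus strand) holds none in this window, and 28.3% of the 32851 promoters in the table hold at least 1 on either strand. Of 3 other motifs searched on both strands, the STAT site TTCNNNGAA was present once in C1ra and once in Masp2 (8.3% of all promoters). The MAF half-site TGCTGA was present once in C1qb (19.5%). The core of the interferon-stimulated element, GAAANNGAA, was in none of the 5 (8.56%). These are matches of letters and were not tested for binding. GAGGAA and GAAANNGAA can overlap at their GAA.

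Depth was 32274797 to 53063470 reads counted per library, and log2 CPM (counts scaled to library size) of any pair of libraries correlated across genes at r = 0.963 to 0.988. The labels do not say whether each library is a different mouse, so the p-values cover only the spread among these samples, which may be technical. WT libraries had C3 at 1025, 787, 903 and 799 CPM, and C3 KO 1 to 3 had it at 475, 465 and 601 CPM. The library labelled C3 KO 4 had 1416 CPM, more than every other library. WT libraries had S1pr1 at 295, 491, 319 and 330 CPM, and S1pr1 KO 1, 3 and 4 had it at 132, 142 and 154 CPM. The library labelled S1pr1 KO 2 had 366 CPM, inside the WT range. Both libraries go against their labels at the targeted gene, and comparisons are therefore given with and without them where they matter. Markers of alveolar type 2 cells, which define lung, were abundant, with 7 genes such as the surfactant genes Sftpc and Sftpb summing to 17892 to 26171 CPM.

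Levels of different genes were compared as FPKM, the deposited values per kilobase of listed gene length, as mean ± SD over the 12 libraries. Serping1, the inhibitor, was the highest at 205 ± 12.4 FPKM, at the 99.2 percentile of the genes tested. C4b followed at 66.4 ± 15.5 FPKM. C1qa (40.4 ± 9.57), C1s1 (37.0 ± 4.83), C1qb (34.2 ± 7.83) and C1ra (32.6 ± 3.68 FPKM) lay close together, and their neighbours in this order kept it in only 9, 10 and 8 of 12 libraries. All other neighbours in the order kept it in 12 of 12 libraries. C1qc was at 17.9 ± 4.38 FPKM, although its chain is part of the same protein as C1qa and C1qb. The listed length of C1qc is 1931 bases, against 1040 for C1qa and 1088 for C1qb, and FPKM depends on it. C2, the partner of C4 in the C3-cleaving enzyme, was far lower at 2.77 ± 0.585 FPKM. The lectin pathway proteases were lowest, with Masp1 at 0.746 ± 0.206 FPKM and Masp2 at 0.0616 ± 0.0268 FPKM, the 24.1 and 0.994 percentiles. Here too FPKM depends on length, as Masp1 is listed at 9833 bases and C2 at 3872. Not divided by length, Masp1 was at 7.37 CPM on average and C2 at 10.7 CPM.

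Ratios between partners in the same libraries were steadier than the levels for C1q and for C1r with C1s. In FPKM the ratio of C1qa to C1qb was between 1.05 and 1.25 in all 12 libraries, a coefficient of variation (CV) of 5.55%, although C1qa itself spanned 2.27-fold. C1s1 to C1ra ranged from 1.04 to 1.28 (CV 6.65%). Serping1 was 2.59 to 3.46 times the sum of C1ra and C1s1 (CV 9.62%). The ratio of C4b to C2 was wider, from 16.7 to 35.6, with a CV of 21.5%. In the 4 WT libraries alone it lay between 22.3 and 23.1.

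The group means of the C1q chains lay close together, and 1 library stood far above the rest. C1qa measured 42.8, 36.0, 39.1 and 46.7 CPM in the WT libraries 1 to 4, where the library size is scaled by TMM. The C3 KO libraries 1 to 4 gave 36.6, 29.9, 33.3 and 67.3 CPM, against 40.8, 49.9, 36.6 and 46.9 CPM in the S1pr1 KO libraries 1 to 4. The library labelled C3 KO 4 was the highest of all 12, and the other 3 C3 KO libraries lay in the lower part of the range. These values rest on 1022 to 2631 reads per library.

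C1qb showed 39.7, 35.8, 34.2 and 39.0 CPM in the WT libraries, 30.6, 25.9, 30.2 and 59.2 CPM in those of C3 KO, and 34.1, 42.9, 35.3 and 41.8 CPM in those of S1pr1 KO. C1qc measured 37.7, 31.4, 29.8 and 40.9 CPM in the WT libraries, 28.5, 25.6, 25.5 and 55.3 CPM in those of C3 KO, and 29.9, 38.5, 33.7 and 40.2 CPM in those of S1pr1 KO. For both genes C3 KO 1 to 3 lay below every WT library and the library labelled C3 KO 4 above every other one, so the WT and C3 KO ranges overlapped. The share of all genes with C3 KO 1 to 3 below every WT library was not counted. This order, here and for C1ra, C1s1 and Serping1 below, is given as a description. The CV within C3 KO was 41.2% for C1qa, 41.9% for C1qb and 42.8% for C1qc, against 7.0% to 15.0% in WT and 11.6% to 13.7% in S1pr1 KO.

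C1ra, the protease that C1q binding activates, measured 101, 93.8, 92.0 and 104 CPM in the WT libraries, 90.9, 85.9, 82.1 and 119 CPM in those of C3 KO, and 112, 106, 97.5 and 88.5 CPM in those of S1pr1 KO. C1s1, the protease that cleaves C4 and C2, measured 118, 107, 113 and 120.3 CPM in the WT libraries. The C3 KO libraries gave 104, 98.0, 92.3 and 129 CPM, against 147, 132, 113 and 119 CPM in the S1pr1 KO libraries. As for C1qb and C1qc, both genes were lower in C3 KO 1 to 3 than in any WT library, and the library labelled C3 KO 4 was the highest for C1ra and the third highest for C1s1. The highest level of C1s1 was in S1pr1 KO 1.

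Serping1 varied least. C1 inhibitor RNA measured 489.7, 481, 539 and 498 CPM in the WT libraries, 472, 449, 435 and 489 CPM in those of C3 KO, and 514, 468, 462 and 453 CPM in those of S1pr1 KO. The CV within a group was 5.09% to 5.73%, and the highest library was 1.24 times the lowest. C3 KO 1 to 3 were again below every WT library, while the library labelled C3 KO 4 was inside the WT range.

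C4b, the mouse gene for functional C4, measured 480.0, 342, 384 and 368 CPM in the WT libraries, 342, 258, 343 and 597 CPM in those of C3 KO, and 322, 358, 426 and 331 CPM in those of S1pr1 KO. C2 measured 14.1, 10.1, 11.5 and 11.2 CPM in the WT libraries, 8.33, 7.93, 11.8 and 12.5 CPM in those of C3 KO, and 9.64, 14.6, 8.13 and 9.11 CPM in those of S1pr1 KO. C4b thus shared with C1q its highest library, the one labelled C3 KO 4, whereas C2 was highest in the library labelled S1pr1 KO 2. The groups overlapped for both. C2 overlaps 3 listed genes, 1 of them, Gm20547, on its own strand, and how the authors' counting divided reads between them is not given in the sources used here.

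Masp1, a protease of the lectin pathway, measured 5.66, 7.54, 9.11 and 12.6 CPM in the WT libraries, 5.81, 6.59, 6.16 and 5.19 CPM in those of C3 KO, and 8.78, 6.43, 7.25 and 7.21 CPM in those of S1pr1 KO. WT spread most, and WT 1 lay inside the C3 KO range, on 201 to 464 reads per library. The library labelled C3 KO 4, the highest for 6 of the 10 genes, was the lowest of all for Masp1. How many of all genes were highest or lowest in that library was not counted. Masp2, the lectin pathway protease that cleaves C4, had 2 to 14 reads per library, or 0.0555 to 0.358 CPM. It did not pass the filter on low counts and was not tested. Tardbp, which overlaps Masp2 on the opposite strand, was at 217 CPM on average. Masp1 overlaps 3 listed genes, all on the opposite strand, the highest of them at 25.3 CPM on average. How reads were assigned by strand is not given in the sources used here.

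**Figure D1:**
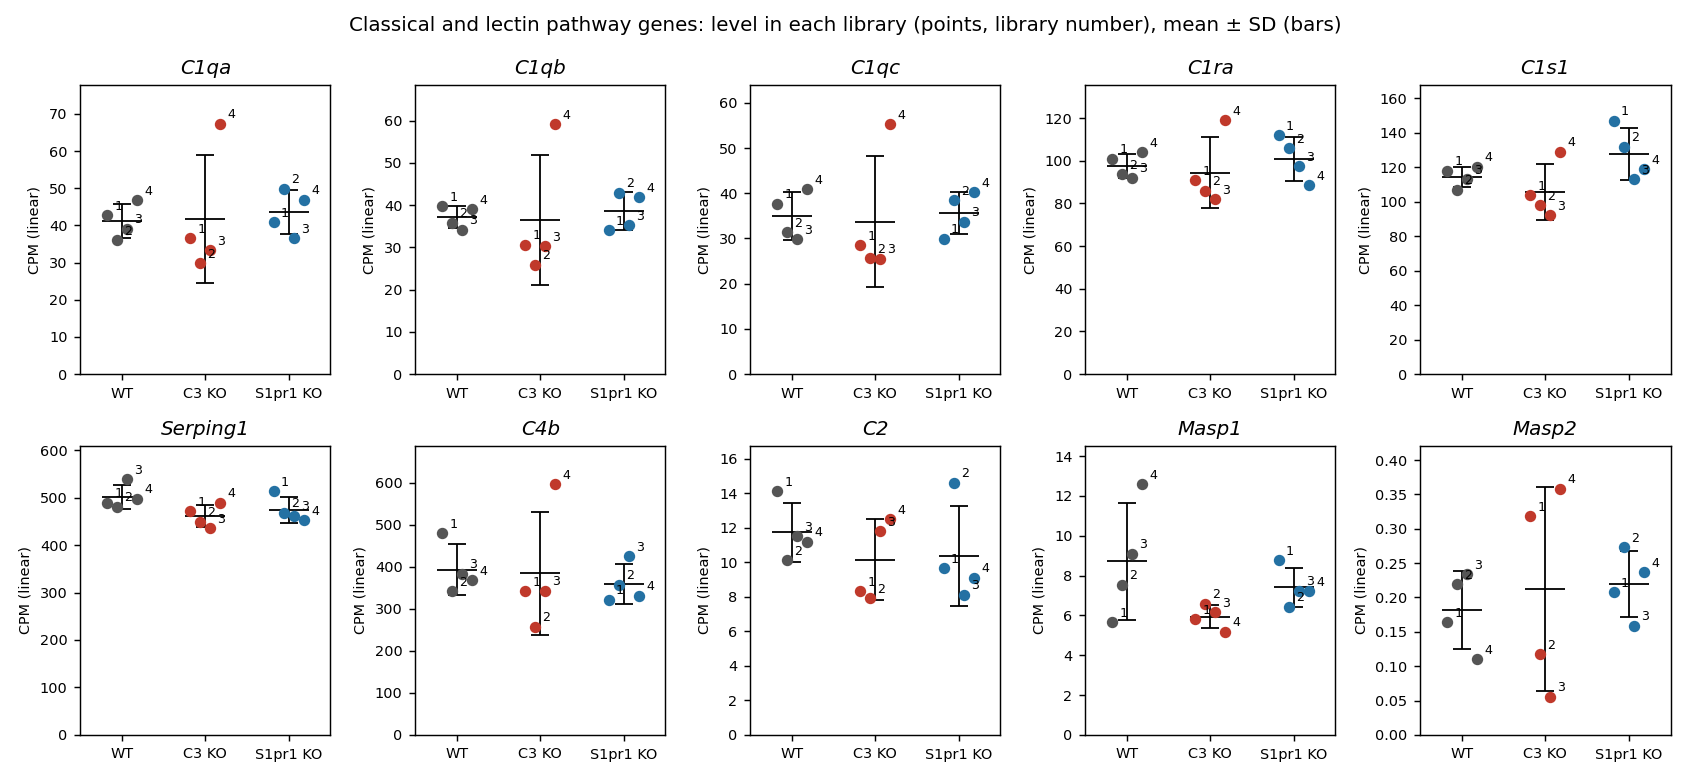
Level of each of the 10 genes in CPM (linear axes starting at 0) in the 12 libraries, by genotype. Points are libraries with their number, and bars give the group mean ± SD. The library labelled C3 KO 4 stands at the top for C1qa, C1qb, C1qc, C1ra, C4b and Masp2 and at the bottom for Masp1.

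None of the genes passed the test between genotypes. Of the 10, 9 passed the filter on low counts, and in C3 KO against WT 0 of the 9 passed edgeR's quasi-likelihood test at a Benjamini-Hochberg adjusted p of 0.05, where 0.00989% of the 20229 genes tested did. At an unadjusted p under 0.05 there was 1 of the 9, Masp1, against 11% of all genes. DESeq2 and limma voom likewise gave 0 of 9 adjusted and only Masp1 unadjusted. Limma on log2(FPKM + 1) and on log2(FPKM + 0.1) gave 0 of 9 even unadjusted, with Masp1 at -0.22 and -0.44 on those scales. Masp1 was at a log2 fold change of -0.56 (SE 0.205, 95% interval -1.0 to -0.111, edgeR adjusted p = 0.377), with group means of 5.94 ± 0.588 CPM in C3 KO and 8.74 ± 2.96 CPM in WT (SD, n = 4 each). Without WT 4 the log2 value was -0.32 and the adjusted p 0.546, and no gene of the 9 had an unadjusted p under 0.05.

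The other log2 fold changes in C3 KO against WT lay between -0.21 for C2 (SE 0.201, edgeR adjusted p = 0.752) and 0.024 for C1qa (SE 0.215, edgeR adjusted p = 0.982). The 95% interval of C1qa ran from -0.44 to 0.49, that is from 0.736- to 1.4-fold. Serping1 was measured most closely, at -0.12 (SE 0.062, 95% interval -0.256 to 0.0135, edgeR adjusted p = 0.502). The median of the 9 genes was -0.052, against -0.000995 for all genes tested, and 8 of the 9 were below 0, against 50.2% of all genes. The C3 KO and WT libraries overlapped for all 10 genes, while 6.09% of all genes had groups that did not overlap.

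In S1pr1 KO against WT 0 of the 9 genes passed, where 1.35% of all genes did, and none had an unadjusted p under 0.05 (18% of all genes) with edgeR, DESeq2 or voom. The log2 fold changes ran from -0.23 for Masp1 (SE 0.204, edgeR adjusted p = 0.6) to 0.16 for C1s1 (SE 0.106, edgeR adjusted p = 0.467). Both ends rested on single libraries: Masp1 was at -0.0012 without WT 4 and at -0.395 without WT 1, where its unadjusted p was under 0.05, and C1s1 was at 0.083 without S1pr1 KO 1. Without the library labelled S1pr1 KO 2, C2 was at -0.39 (SE 0.176, edgeR adjusted p = 0.284) in place of -0.18 and was the 1 gene of the 9 with an unadjusted p under 0.05, against 17.1% of all genes. The same held with the library labelled C3 KO 4 left out as well, against 19% of all genes. C1qa was at 0.083 with a 95% interval of -0.383 to 0.548, and C4b at -0.13 with one of -0.587 to 0.325. The median was 0.022, against -0.00108 for all genes, and 5 of the 9 were above 0, against 49.8% of all genes. Groups of 0 of the 10 genes were apart, against 11.3% of all genes. Both of these comparisons share the WT libraries.

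S1pr1 KO against C3 KO gave 0 of 9, with 0.0% of all genes called by edgeR. Only C1s1 had an unadjusted p under 0.05, as it did with DESeq2 and voom, against 12% of all genes. C1s1 was at 128 ± 15.3 CPM in S1pr1 KO and 106 ± 16.3 CPM in C3 KO (SD, n = 4 each). Its log2 fold change was 0.27 (SE 0.106, 95% interval 0.0401 to 0.5, edgeR adjusted p = 0.342). Leaving out C3 KO 1, 2 or 3 or S1pr1 KO 1 or 2 each brought that count to 0. The remaining genes lay between -0.10 for C4b and 0.32 for Masp1, with adjusted p from 0.564 to 0.967. The median was 0.0745 (all genes 0.00307), and 8 of the 9 were above 0, against 50.7% of all genes. Without C3 KO 1, 2 or 3 the number above 0 was 4, 4 and 5 of the 9, with medians of -0.0057, -0.045 and 0.0056. Of the 10 genes 0 had groups that did not overlap, against 6.4% of all genes.

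**Figure D2:**
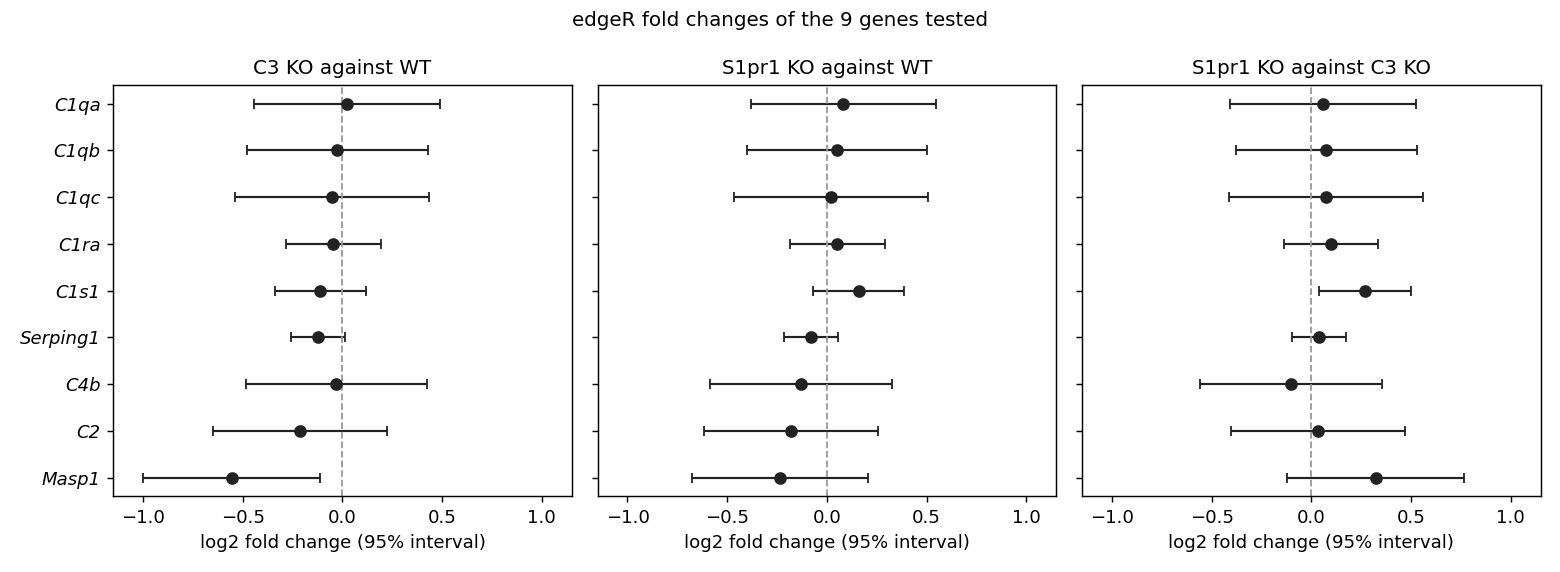
Log2 fold change of each of the 9 tested genes in the 3 comparisons (x axis, log2), from edgeR, with its 95% interval as a bar. The dashed line marks no change. The intervals of Masp1 in C3 KO against WT and of C1s1 in S1pr1 KO against C3 KO leave out 0, and neither passed the adjusted threshold.

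For the C1q genes, C1ra, C1s1 and C4b, the spread within C3 KO rested mostly on the library labelled C3 KO 4. That library differs from the other C3 KO libraries at the targeted gene as well. Without it, the log2 fold change in C3 KO against WT was below 0 for 9 of the 9 genes, against 49.7% of all genes. C1qc was at -0.40 (SE 0.127), C1qb at -0.36 (SE 0.0996), C1qa at -0.30 (SE 0.120), C4b at -0.32 (SE 0.139) and C1s1 at -0.22 (SE 0.0884). The median was -0.32, against 0.00168 for all genes. Unadjusted p was under 0.05 for 7 of the 9, all but C1ra and C2, against 10.6% of all genes, and 0 passed after adjustment, with the lowest edgeR adjusted p of 0.292 for C1qb. In S1pr1 KO against C3 KO 0 of the 9 were then below 0, against 49.5% of all genes, with a median of 0.26. Of the 9, 5 had an unadjusted p under 0.05 (C1qa, C1qb, C1qc, C1ra and C1s1), against 15% of all genes. There too 0 passed, the lowest edgeR adjusted p being 0.129 for C1s1. A library singled out by its level of C3 makes these values circular for any gene that varies with C3. They are given as a description.

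Lung RNA is a mixture, and fewer cells of a type cannot be told apart from less RNA per cell. Summed over 12 alveolar macrophage markers, such as Marco, Siglecf and Chil3, the library labelled C3 KO 4 was at 1994 CPM, against 683 to 895 CPM in C3 KO 1 to 3, 719 to 926 CPM in WT and 586 to 688 CPM in S1pr1 KO, and 7 of the 12 genes were highest in it. The S1pr1 KO libraries all lay below the WT range of that sum. In these libraries C1qa ranged from 36.6 to 49.9 CPM, against 36.0 to 46.7 CPM in WT. Whether C1qa follows that sum was not tested. The alveolar macrophage list shares Car4 with the endothelial list, which summed to 4094 to 4663 CPM in S1pr1 KO and 4842 to 5542 CPM in WT. How far Car4 lowered the sum was not tested. Over 15 tissue macrophage markers, such as Csf1r, Mrc1 and Folr2, the library labelled C3 KO 4 was at 1701 CPM, the seventh highest, with 1772 to 2021 CPM in WT, 1541 to 1739.5 CPM in C3 KO 1 to 3 and 1576 to 1705 CPM in S1pr1 KO. Every library of both knockouts was thus below the WT range of this sum.

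The same library had the lowest sums for 14 fibroblast markers (4503 CPM, against 4645 to 5547 CPM in the others) and 9 endothelial markers (3874 CPM). It had the highest for 7 alveolar type 2 markers (26171 CPM) and for 7 constant region genes of immunoglobulin, Igha and Igkc included (875 CPM, against 220 to 792 CPM in the others). It was also lowest for neutrophil (33.3 CPM, against 82.9 to 1282 CPM), NK and cytotoxic (22.6 CPM) and interferon response genes (535 CPM), and highest for dendritic cell markers (183 CPM) and acute phase and NF-kB genes (1360.2 CPM). C3 KO 3 was the lowest library for 5 of the 10 complement genes, and the share of all genes lowest in it was not counted. It stood apart in other markers, with erythroid genes at 24729 CPM (961 to 4465 CPM in the others) and neutrophil genes at 1282 CPM (33.3 to 451 CPM in the others). Without it 4 of the 9 genes were below 0 in C3 KO against WT, with a median of 0.022. This was not particular to C3 KO 3. Without C3 KO 2 it was also 4 of the 9, with a median of 0.0033, and without C3 KO 1 it was 5, with a median of -0.023. The library labelled S1pr1 KO 2, the highest for C2, stood apart as well. Its cardiomyocyte markers were at 3249 CPM (172 to 1514 CPM in the others). Adipocyte markers in it were at 237 CPM (19.6 to 80.8 CPM in the others) and hepatocyte markers at 52.3 CPM (8.97 to 24.5 CPM in the others). Skeletal muscle markers in it were at 165 CPM, below only WT 2 at 238 CPM. No marker of these lists was at 0 in every library. Hepatocyte markers, from the organ that makes most plasma complement, summed to only 8.97 to 52.3 CPM over 10 genes. The part of these cell types in the levels of the complement genes was not tested.

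**Figure D3:**
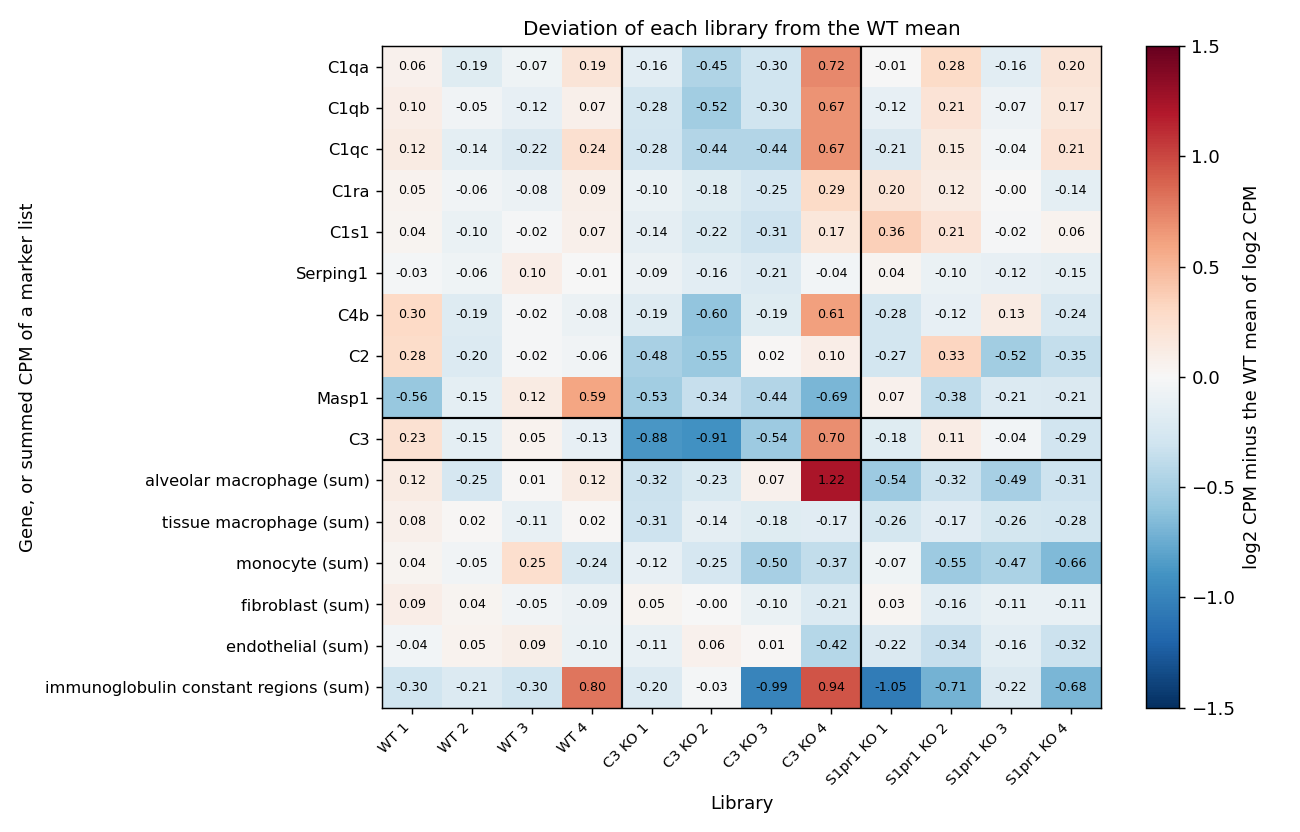
Log2 CPM of each gene, or of the summed CPM of a marker list, minus the WT mean, in the 12 libraries (colour scale and printed values, log2). Horizontal lines set off C3 and the marker lists. The library labelled C3 KO 4 is above the WT mean for the C1q genes, C4b, C3 and the alveolar macrophage sum, near it for Serping1, and below it for Masp1.

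Across the 12 libraries the genes were compared in 7 pairs chosen by function, as correlations of log2 CPM with two-sided permutation p-values from 100000 resamples, with Benjamini-Hochberg adjustment over the 7. The C1q chains gave r = 0.965 for C1qa and C1qb (permutation p = 2e-05, adjusted 4.67e-05, rho = 0.874, p = 0.00036). For C1qb and C1qc r was 0.962 (rho 0.93, p = 8e-05) and for C1qa and C1qc 0.945 (rho 0.86, p = 0.00068), both with a permutation p of 1e-05, the smallest that this number of resamples can give. Without the 2 libraries farthest from the median, those labelled C3 KO 4 and C3 KO 2, r was 0.887, 0.937 and 0.87 for C1qa with C1qb, C1qb with C1qc, and C1qa with C1qc. C1ra and C1s1 gave r = 0.868 (permutation p = 0.00035, adjusted 0.000612, rho = 0.853, p = 0.00083), and 0.854 without the library labelled C3 KO 4 and S1pr1 KO 1.

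The other 3 pairs, C1ra and C1s1 each with Serping1 and C2 with C4b, gave lower r. Among pairs that were not chosen, r ran from -0.311 for C4b with Masp1 to 0.789 for C1qb with C4b. C1qa with C1ra gave 0.773. High r was thus not limited to chains of C1q or to C1ra with C1s1, and the differences between values of r were not tested. C1ra with Serping1 gave r = 0.533 (permutation p = 0.0756) and rho = 0.629 (p = 0.0335, adjusted 0.0469), and r = 0.464 without its 2 farthest libraries. C1s1 with Serping1 gave r = 0.562 (permutation p = 0.0576, rho = 0.559, p = 0.0631), which was 0.218 without S1pr1 KO 1 and C3 KO 3 and so rests on those libraries. C2 with C4b gave r = 0.527 (permutation p = 0.0756, rho = 0.573, p = 0.055), and 0.525 without its 2 farthest. After adjustment the Pearson p of these 3 pairs was 0.0756. As deviations from the group means, r was 0.948 to 0.967 among the C1q chains and 0.921 for C1ra with C1s1. It was 0.747 for C1s1 with Serping1, 0.612 for C1ra with Serping1 and 0.509 for C2 with C4b.

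The protein coding genes most like each of these, by Pearson r of log2 CPM over the 12 libraries among 14236 candidates at a mean of at least 1 CPM, are given as a description. For C1qa they included Senp3 (r = 0.911) and Pi4k2b (0.91). For C1qb they included Mob3b (0.939) and Kcnj13 (0.93), and for C1qc they were Snhg11 (0.884), Slc9a4 (0.88) and H2az1 (0.875). These C1q values were all lower without the library labelled C3 KO 4, between 0.769 and 0.905. Cpq was on the lists of both C1ra (0.916, with Pak3 at 0.913 and Cib2 at 0.89) and C1s1 (0.921, with Plb1 at 0.939 and Slc11a2 at 0.888). C4b was closest to H4c8 (0.897), Shtn1 (0.895) and Pparg (0.883). Without the library labelled C3 KO 4 these were at 0.867, 0.785 and 0.769. Pparg is also on the alveolar macrophage list. C2 was closest to Gpc3 (0.884), Slc16a1 (0.871) and Nfil3 (0.868), and Masp1 to Arl6ip4 (0.864), Phospho2 (0.85) and Inha (0.848). Serping1 was closest to Prpf40b (0.939), Zfp777 (0.936) and Rabac1 (0.92).

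The rest of the 2 pathways was read from 20 further genes, of which 15 were tested. In each comparison 0 of the 15 passed, rising or falling, with edgeR, and their median log2 fold changes were -0.019 in C3 KO against WT, 0.0475 in S1pr1 KO against WT and 0.0335 between the knockouts. The highest were Lrp1 (869 CPM on average), Cd93 (601 CPM) and Calr (449 CPM), each of which has been described as a receptor or binding partner of C1q. Colec12, a membrane collectin of endothelium, was at 198 CPM. The soluble molecules that carry Masp1 and Masp2 were scarce in lung RNA. Mbl1, one of the 2 mouse mannose-binding lectins, was at 2.99 CPM, the ficolin Fcna at 1.74 CPM, and the collectins Colec11 and Colec10 at 0.986 and 0.409 CPM. Mbl2 had 3 reads in all 12 libraries together, and of the pentraxins that C1q binds Crp had 28 and Apcs none, while Ptx3 had 745, with reads in all 12 libraries and a mean of 1.62 CPM. Of 7 alternative pathway and anaphylatoxin receptor genes and of 18 tested complement regulators and terminal components, 0 passed in any of the 3 comparisons.

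No protein coding gene within 100 kb of the C1q cluster (2 tested), of C1ra and C1s1 (5 tested) or of C2 and C4b (18 tested) passed the test in any comparison.

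Mice have duplicates of C1r, C1s and C4, and they share sequence with the genes above. In GENCODE M21 transcripts, 48.0% of the 50-base windows of C1ra are also in C1rb, 24.3% of those of C1s1 are in C1s2 and 35.2% of those of C4b are in C4a. With windows of 100 bases the shares were 34.5%, 7.9% and 16.5%. Reads from such windows cannot be assigned to one copy, and how the authors treated them is not given in the sources used here. The copies were counted at far lower levels, C1rb at 2.85 CPM on average, C1s2 at 4.23 CPM and C4a at 1.84 CPM.

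The duplicates of C1r and C1s were nearly missing from 1 library, which was noticed after their values were seen. C1rb (ENSMUSG00000098470, chromosome 6 from 124547253 to 124558130) measured 2.85, 2.94, 3.25 and 2.69 CPM in the WT libraries, 3.5, 2.87, 2.55 and 4.4 CPM in those of C3 KO, and 0.265, 2.66, 3.59 and 2.61 CPM in those of S1pr1 KO. C1s2 (ENSMUSG00000079343, 124601584 to 124613044) measured 3.86, 3.81, 5.24 and 5.24 CPM in the WT libraries, 3.61, 3.98, 3.69 and 5.35 CPM in those of C3 KO, and 0.36, 5.96, 5.07 and 4.57 CPM in those of S1pr1 KO. Both were lowest in S1pr1 KO 1, the deepest library, with 14 and 19 reads, or 0.104 and 0.0995 times the lowest of the other 11.

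C1ra and C1s1 were not low in S1pr1 KO 1, at 112 and 147 CPM. In the window from 124389364 to 124713044, which reaches 100 kb to each side of these 4 genes, the 11 other tested genes were at 0.965 times the lowest other library or above, C1ra and C1s1 among them. Among 13606 genes with at least 2 CPM in each of the other libraries, 5 were at least 5 times below the lowest of them in S1pr1 KO 1, and 0 to 3 in any other library. Besides the duplicates, the 5 held 1 more gene of chromosome 6, Pianp, at 124973657 to 124980059, with 2.08 CPM against 22.3 to 29.1 CPM in the other libraries. The rest of the 5 lie on other chromosomes. Gm13394, a processed pseudogene of chromosome 2, was at 1.27 CPM against 46.1 to 63.3 CPM. Gm47283, a long non-coding RNA of chromosome Y, was at 0.0757 CPM against 3.79 to 42.0 CPM. Neither C1rb nor C1s2 passed the test in any comparison.

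**Figure D4:**
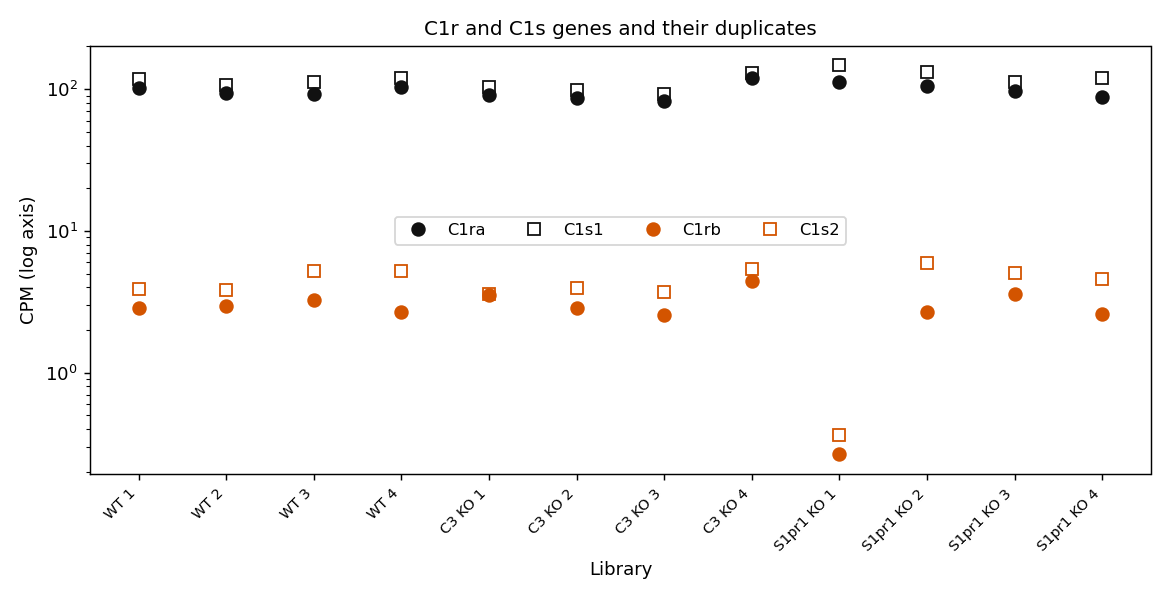
CPM (log axis) of C1ra, C1s1 and their duplicates C1rb and C1s2 in each library. The 2 duplicates lie between 2.55 and 5.96 CPM except in S1pr1 KO 1, where they are at 0.265 and 0.36 CPM while C1ra and C1s1 are at 112 and 147 CPM.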

How the data were processed

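Whole-lung RNA was sequenced in 12 libraries, grouped by the genotype labels. Per the labels' protocols, tissue was kept in RNAlater and RNA extracted with QIAzol. The submitters' processing notes name CASAVA, STAR and the builds GRCm39 and mm39. How reads were counted and with which strand setting is not given in the sources used here. The deposited table gave read counts per gene, 1 column per library. The authors' deposited FPKM were used only for levels between genes and in an alternative.

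Counts were tested with edgeR 4.0.16 (R 4.3.3): filterByExpr (20229 genes kept), TMM scaling, and a quasi-likelihood fit of 3 group means to 12 libraries (9 residual degrees of freedom), with Benjamini-Hochberg adjustment over all genes tested and a threshold of 0.05. The SE is the absolute log2 fold change divided by the square root of the F statistic. Log2 CPM used a prior count of 2. Alternatives were DESeq2 1.42.0, limma 3.58.1 (voom with quality weights, and on log2 FPKM), other scaling and filters, only the groups compared, and leaving libraries out.

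The genes and lists were chosen with earlier results of these data known. Besides the 10 genes, those named are C3, S1pr1, the duplicates C1rb, C1s2 and C4a, list members that passed or the 3 most abundant, the 3 genes most like each gene, and neighbours that passed. Of the most similar genes, 1 is not reported here. The lectins, pentraxins, marker examples, Pianp, Gm13394 and Gm47283 were added after their values were seen. The pair Masp1 and Masp2 was not computed, because Masp2 was not tested. Libraries of a group differed by more than sampling noise (chi-square per degree of freedom at least 12.4).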

Additional observations from a re-analysis of the deposited data

Results flagged for a closer look

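The level of 2 of the genes in the library labelled C3 KO 4 stood apart from the other 3 C3 KO libraries by Dixon's criterion for a group of 4. For C1qb it was 59.2 CPM, and the gap to the next library was 0.86 of the group's range. For C1qc it was 55.3 CPM, with a gap of 0.901 of the range. Of the 30 groups examined, 2 were marked in this way, and chance marks about 1 in 20.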

How the results depend on the processing

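None of the 9 tested genes passed an adjusted threshold in any of the 3 comparisons under any of the 21 alternatives, and the lowest adjusted p among them was 0.129 (edgeR, without the library labelled C3 KO 4). Of their log2 fold changes under the alternatives, 522 kept their sign and 45 did not. With limma voom the sign differed for C1qa in C3 KO against WT (-0.178), C1ra in S1pr1 KO against WT (-0.0101) and C4b between the knockouts (0.129). With limma on FPKM it differed for C1qa in C3 KO against WT (-0.0414 with 1 added, -0.0438 with 0.1 added). With both C3 KO 4 and S1pr1 KO 2, as labelled, left out it differed for C1qa in C3 KO against WT (-0.302), C1qb and C1qc in S1pr1 KO against WT (-0.00497 and -0.018), and C2 and C4b between the knockouts (-0.0635 and 0.189).

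Leaving out each library in turn, log2 values in C3 KO against WT ranged from -0.302 to 0.162 for C1qa, -0.358 to 0.115 for C1qb, -0.396 to 0.0681 for C1qc, -0.173 to 0.0216 for C1ra and -0.319 to 0.128 for C4b. In S1pr1 KO against WT they ranged from -0.00496 to 0.106 for C1qb and -0.0483 to 0.106 for C1qc. Between the knockouts they ranged from -0.07995 to 0.384 for C1qa, -0.064 to 0.409 for C1qb, -0.0462 to 0.418 for C1qc, -0.183 to 0.147 for C2 and -0.259 to 0.187 for C4b. The cause was not tested.

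The number of genes called over the whole table, for C3 KO and for S1pr1 KO against WT and between the knockouts, was 2, 274 and 0. It was 177, 1279 and 317 with DESeq2, 21, 928 and 36 with voom, 6, 171 and 7 with log2(FPKM + 1), 6, 150 and 6 with log2(FPKM + 0.1), and 31, 473 and 3 without both libraries named above. Without a filter 15 were called between the knockouts, and with only the 2 groups 1 in C3 KO against WT. Leaving out each library in turn gave 1 to 32, 2 to 571 and 0 to 13, with 32 and 571 without the library labelled C3 KO 4 and 2 without S1pr1 KO 4. Masp2 could be fitted only without the filter, at log2 values of 0.236 (SE 0.548), 0.266 (SE 0.543) and 0.03 (SE 0.538), on 2 to 14 reads per library. No paired analysis was possible because the labels number the samples consecutively over the groups and share no number between them.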
